A study of Mus musculus with 14 samples.

Results

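Mafa, Ucn3, Esrrg, Npy and Syt4, which mark the postnatal switch of pancreatic beta cells from an immature to a mature state, were followed in cultured islets of newborn mice. They were chosen by gene symbol and are 5 of the 54532 gene identifiers in the count table, and all 5 passed the filter on low counts. The islets came from C57BL/6JRj mice at postnatal day 0 (P0) and were cultured at 11 mM glucose for 1 day, either with DMSO as the vehicle or with adjudin, a small molecule, at 10 µM. There were 7 libraries of each treatment. The labels place the DMSO and the Adjudin library of 1 replicate number in the same batch, and these 2 libraries are called a pair. Islets of several male or female pups were pooled for each sample, so a library does not stand for a single animal. The question was whether the maturation genes differed between islets treated with adjudin and islets treated with DMSO.

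Newborn beta cells secrete insulin even at low glucose and become glucose responsive in the weeks after birth. MAFA, a basic leucine zipper transcription factor that binds the insulin promoter, increases in mouse beta cells over this period. ESRRG, an orphan nuclear receptor of the oestrogen-related group, controls mitochondrial genes and has been placed upstream of glucose responsiveness. Urocortin 3, encoded by Ucn3, is released with insulin and acts on delta cells, and in the mouse it appears late. Syt4 encodes a synaptotagmin, a vesicle protein of low calcium sensitivity that lowers insulin release at low glucose. These 4 genes are known to rise with maturation, whereas Npy, the gene of neuropeptide Y, is known from immature rodent beta cells and falls.

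Of the 14 libraries, 13 held between 26475749 and 36900026 counts, and DMSO replicate 7 held 108865228. Levels are given as CPM, the count scaled to a fixed library total, after scaling by trimmed means of M-values (TMM). A single count was worth between 0.00919 and 0.0378 CPM, depending on the library. DMSO replicates 5 and 7 stood apart. In DMSO replicate 5 the insulin gene Ins2 was at 2.22 CPM and the glucagon gene Gcg at 0.0924 CPM, against 581 to 9899 CPM and 96.3 to 2152 CPM in the other 13 libraries, so the insulin and glucagon transcripts that define beta and alpha cells were nearly missing there, while the somatostatin gene Sst was at 75.9 CPM. In DMSO replicate 7 the noradrenaline-synthesis gene Dbh was at 55.3 CPM, against 0.0659 to 10.1 CPM in the others. Endocrine content was followed by the endocrine score, the mean log2 CPM of 10 genes such as Chga and Pax6, which spanned 2.68 to 6.03 in DMSO and 3.12 to 6.83 in Adjudin libraries and was higher with adjudin in 6 of 7 pairs, by a mean of 0.47 ± 0.40 (SD, n = 7 pairs). The acinar score, over 6 genes of digestive enzymes, was also higher in 6 of 7 pairs, by a mean of 2.23 ± 2.31, and spanned −1.06 to 4.90 in DMSO and 1.40 to 4.46 in Adjudin libraries. Islets are bulk samples, so fewer cells of a type and less RNA per cell cannot be told apart.

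None of the 5 genes passed the test. With edgeR's quasi-likelihood test and Benjamini-Hochberg adjustment over 18732 genes, 0 of 5 had an adjusted p under 0.05, and 0 of 5 had an unadjusted p under 0.05. Over all genes tested 1 gene was called, which is 0.00534%, and 2.26% had an unadjusted p under 0.05. With the replicate number as a block, 0 of 5 were called and 1, Mafa, had an unadjusted p under 0.05, against 5.63% of all genes. DESeq2 called 0 of 5 with or without the block, and with it called 0.572% of all genes. The treatment groups overlapped for all 5, and genes whose groups did not overlap made up 0.016% higher and 0.016% lower with adjudin.

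**Figure D1:**
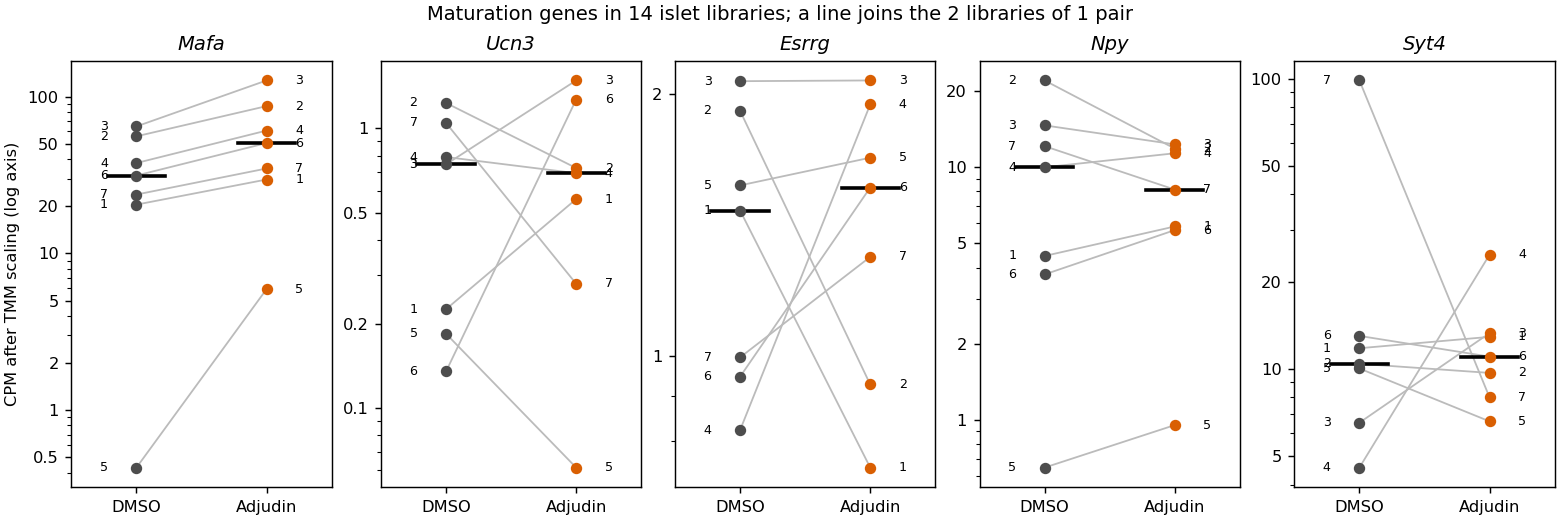
Level of each of the 5 genes (CPM after TMM scaling, log axis with its own range per gene) in the 7 DMSO and 7 Adjudin libraries; points are libraries with their replicate numbers, lines join the libraries of a pair and black bars are medians. Mafa lines all slope upwards, from 0.431 to 5.93 CPM at the lowest, whereas the lines of the other genes cross, and the highest Syt4 point is DMSO replicate 7 at 98.5 CPM.

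Mafa was higher in the Adjudin library of every pair, but the treatment groups overlapped widely. ENSMUSG00000047591 lies on chromosome 15 at 75745490 to 75748228 on the minus strand in the table's coordinates (GRCm38/mm10). Its lowest, median and highest levels were 0.431, 31.4 and 64.6 CPM with DMSO, and with adjudin they were 5.93, 50.6 and 127 CPM. The means were 33.5 ± 21.8 and 56.5 ± 40.2 CPM (SD, n = 7 each). Adjudin replicates 2 and 3 were above all DMSO libraries, and the lowest library of either treatment carried number 5. The log2 fold change was 0.76 ± 0.68 (SE, 95% confidence interval −0.70 to 2.21, edgeR adjusted p = 0.9999), a fold of 1.69.

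Within pairs, Mafa was higher in 7 of 7, a pattern shown by 0.95% of all genes tested (0.854% were lower in 7 of 7). The difference in log2 CPM lay between 0.53 and 0.97 in 6 pairs and was 3.62 in pair 5, where the DMSO library held 14 counts of Mafa and the Adjudin library 193. The 6 pairs other than 5 were thus close to each other. With the replicate block the log2 fold change was 0.92 ± 0.29 (95% confidence interval 0.26 to 1.57, edgeR unadjusted p = 0.0118, adjusted p = 0.768). Without pair 5 the blocked value was 0.68 ± 0.07 with an edgeR adjusted p of 0.0626, the lowest of any Mafa fit. No fit brought the adjusted p of Mafa under 0.05.

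Mafa followed the islet makeup of the libraries closely. Over 14 libraries, its log2 CPM had a Pearson's r of 0.923 and a Spearman's rho of 0.956 with the endocrine score, and r was 0.950 without pair 5, whose libraries hold the 2 most distant scores. With a beta cell score of 6 genes (Ins1, Ins2, Iapp, Nkx6-1, Pdx1 and Slc2a2) r was 0.992 and rho 0.969, and r was 0.948 without the 2 most distant libraries, again those of pair 5. The points are the same 14 libraries, each with its own depth and islet preparation, and the values are descriptions. Relative to the endocrine score, Mafa was higher in 6 of 7 pairs, by −0.15 to 0.80 on the log2 scale outside pair 5 and by 3.18 in it. With the endocrine score as a covariate the log2 fold change was 0.21 ± 0.31, and with that covariate and the replicate block it was 0.81 ± 0.48 (edgeR adjusted p = 0.9997 and 1). With the acinar score as a covariate it was 0.55 ± 0.79. The beta cell score was itself higher with adjudin in 7 of 7 pairs, and its part in the difference in Mafa was not tested.

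Of the same family of large Maf factors, Maf was at 141 ± 14.6 CPM with DMSO and 136 ± 26.5 CPM with adjudin and was higher with adjudin in 2 of 7 pairs, and Nrl, the retinal member, was below the filter.

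**Figure D2:**
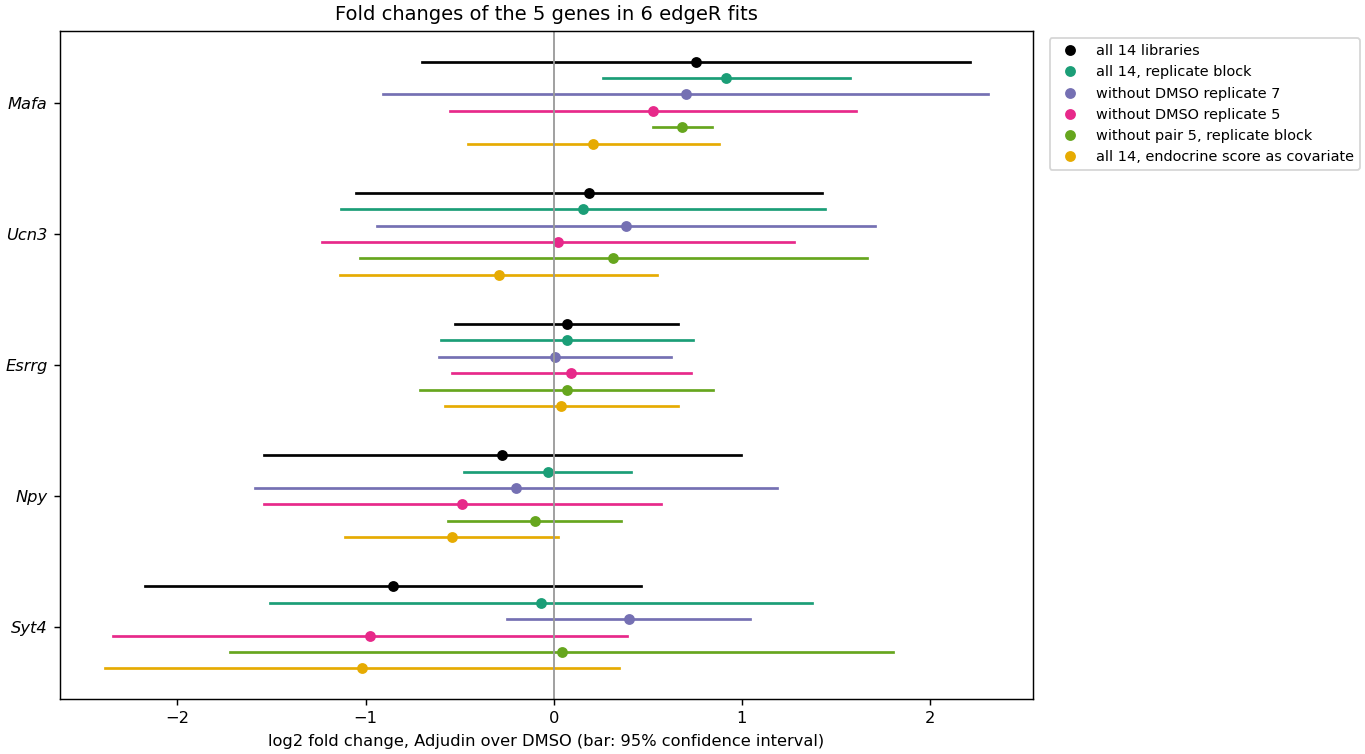
Log2 fold change of each gene, Adjudin over DMSO, in 6 edgeR fits (colours); points are estimates and bars their 95% confidence intervals. The bars of Mafa lie above 0 only in the fits with the replicate block, 0.92 with all 14 libraries and 0.68 without pair 5, and Syt4 moves from −0.85 to 0.40 when DMSO replicate 7 is left out.

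Esrrg was low and alike in both treatments. ENSMUSG00000026610 lies on chromosome 1 at 187608791 to 188214885 on the plus strand. Its lowest, median and highest levels were 0.823, 1.47 and 2.07 CPM with DMSO and 0.746, 1.56 and 2.07 CPM with adjudin, from 20 to 103 counts per library. The highest library of each treatment carried number 3, and the ranges nearly coincided. The log2 fold change was 0.07 ± 0.28 (95% confidence interval −0.52 to 0.66, edgeR adjusted p = 0.9999), and the sign depended on single libraries. Adjudin was higher in 5 of 7 pairs, with differences from −0.999 to 1.19 on the log2 scale.

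In DMSO replicate 5, where Ins2 and Gcg were near 0 and Mafa was lowest, Esrrg was at 1.57 CPM, above the DMSO median. Its r with the endocrine score was 0.118 and rho 0.327 over 14 libraries, and r was 0.511 without pair 5, the 2 most distant libraries. Genes overlapping Esrrg on either strand, such as the antisense transcript Gm36388, had at most 6 counts in any library. Of the related receptors, Esrra, which is active in most tissues with high respiration, was at 49 ± 4.08 and 51.7 ± 3.24 CPM, and Esrrb was below the filter. The coactivators Ppargc1a, at 2.53 ± 0.96 and 2.94 ± 1.07 CPM, and Ppargc1b, at 2.01 ± 0.72 and 1.92 ± 0.49 CPM, bind these receptors, and 0 of the 4 tested genes of the group were called or had an unadjusted p under 0.05 in edgeR, with or without the block.

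The 2 secreted peptides of the set, urocortin 3 and neuropeptide Y, moved together across libraries (Pearson's r of log2 CPM 0.799, Spearman's rho 0.758, n = 14; r = 0.712 without the 2 libraries farthest in Ucn3). The pattern was not particular to these 2 genes. Between Mafa and Npy r was 0.875 and rho 0.758, and r was 0.561 without pair 5. Between Mafa and Ucn3 the values were 0.645, 0.670 and 0.579. Mafa, Ucn3 and Npy all rose with the endocrine score. RefSeq promoter windows (GRCm38.p6) matched 3 of the 5 genes, Ucn3, Npy and Esrrg. The 250 bases before the start are shown for the 2 peptide genes. TAAT, the core of homeodomain sites, is in capitals on either strand, and no overlap between matches occurred in them.
Ucn3, chr13:3945350-3945599, minus strand: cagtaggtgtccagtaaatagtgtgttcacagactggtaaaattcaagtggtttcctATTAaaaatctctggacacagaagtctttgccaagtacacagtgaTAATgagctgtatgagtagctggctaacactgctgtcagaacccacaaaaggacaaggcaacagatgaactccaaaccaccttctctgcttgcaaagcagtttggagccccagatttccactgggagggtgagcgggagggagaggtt
Npy, chr6:49822460-49822709, plus strand: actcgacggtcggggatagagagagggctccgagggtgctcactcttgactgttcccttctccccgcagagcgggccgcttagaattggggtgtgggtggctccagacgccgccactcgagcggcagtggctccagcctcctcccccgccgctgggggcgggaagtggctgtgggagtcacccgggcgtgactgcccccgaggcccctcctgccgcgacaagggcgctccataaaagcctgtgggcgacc
TAAT was found 2 times before Ucn3 and 0 times before Npy, and 54.9% of 32851 mouse windows of that length hold it. CANNTG, the E-box, which reads the same on both strands, was found 2 and 0 times, with a share of 66.2% over all windows. AGGTCA, a nuclear receptor core, and TGCTGA, the core of Maf sites, were found on neither strand of either window, and 4607 and 5282 of the 32851 windows hold them. A match is a description of letters and not a binding site.

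Ucn3 was close to the counting floor in these newborn islets. ENSMUSG00000044988 lies on chromosome 13 at 3940688 to 3945349 on the minus strand. The lowest, median and highest levels were 0.135, 0.744 and 1.23 CPM with DMSO, and 0.0614, 0.692 and 1.48 CPM with adjudin, and the counts were 4 to 108 and 2 to 43. Both the lowest and the highest library were Adjudin libraries, so the DMSO range lay inside the Adjudin range. The log2 fold change was 0.19 ± 0.58 (95% confidence interval −1.05 to 1.42, edgeR adjusted p = 0.9999), an interval that holds 2-fold changes in either direction. Adjudin was higher in 3 of 7 pairs, with differences from −1.72 to 2.79 on the log2 scale.

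Ucn3 varied with endocrine content across libraries, with r = 0.831 and rho = 0.785 to the endocrine score and r = 0.749 without pair 5. With that score as a covariate its log2 fold change was −0.29 ± 0.39, and with the block as well −1.31 ± 0.65 (edgeR adjusted p = 0.9997 and 1). Its receptor gene Crhr2 (0.279 ± 0.227 and 0.357 ± 0.203 CPM), the binding protein gene Crhbp (0.302 ± 0.175 and 0.383 ± 0.463 CPM) and the related ligand gene Ucn2 (2.41 ± 2.29 and 1.44 ± 1.62 CPM) passed the filter, and Ucn, Crh and Crhr1 did not. Of the 4 tested genes of the group, 0 were called, with 0 at an unadjusted p under 0.05 in edgeR with or without the block.

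Npy, the member that falls as beta cells mature, did not differ between treatments beyond its spread. ENSMUSG00000029819 lies on chromosome 6 at 49822710 to 49829507 on the plus strand. Its lowest, median and highest levels were 0.647, 9.98 and 22 CPM with DMSO, and with adjudin they were 0.952, 8.14 and 12.3 CPM. Adjudin libraries of pairs 2 and 3, which had the highest DMSO levels, were lower than their partners, and both libraries of pair 5 were far below the rest. The log2 fold change was −0.27 ± 0.59 (95% confidence interval −1.54 to 0.99, edgeR adjusted p = 0.9999), and with the block −0.03 ± 0.20 (95% confidence interval −0.48 to 0.41). The sign turned to 0.071 without DMSO replicate 2. Adjudin was higher in 4 of 7 pairs.

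Npy tracked the endocrine score as Mafa did (r = 0.918, rho = 0.842, n = 14; r = 0.735 without pair 5), but relative to that score it was lower with adjudin in 6 of 7 pairs, by a mean of −0.48 ± 0.51 on the log2 scale (SD, n = 7 pairs). Npy itself differed within pairs by a mean of −0.0066, and the score by 0.47. The fall was not particular to Npy. Relative to the score, the means were −0.30 for Ucn3, −0.41 for Esrrg and −0.61 for Syt4, each higher in 2 of 7 pairs. With the endocrine score as a covariate the log2 fold change of Npy was −0.54 ± 0.27 (edgeR unadjusted p = 0.0598, adjusted p = 0.9997). Npy followed Ppy, the pancreatic polypeptide gene, more closely than the endocrine score (r = 0.938, rho = 0.952, and r = 0.846 without pair 5). Between Mafa and Ppy r was 0.769, and 0.497 without pair 5. Ppy was higher with adjudin in 2 of 7 pairs, and its cells' part in the Npy values was not tested. The ratio of Mafa to Npy in CPM had a median of 3.78 in DMSO and 6.23 in Adjudin libraries, with ranges of 0.667 to 8.36 and 4.28 to 10.3 that overlapped. It was higher with adjudin in 7 of 7 pairs, by 0.11 to 3.22 on the log2 scale. Against Iapp, the islet amyloid polypeptide gene of beta cells, the ratio of Mafa was higher in 3 of 7 pairs, with a median of 0.0335 in DMSO and 0.0242 in Adjudin libraries and a mean log2 difference of −0.37 ± 0.82 (SD, n = 7 pairs). Iapp was itself higher with adjudin in 7 of 7 pairs, Ins1 in 4 and Ins2 in 2. The ratio thus depends on the beta cell gene below the line, and ratios to Ins1 and Ins2 were not taken. The ratios to Npy and to Iapp were taken after the levels were seen and were not tested.

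Of the related peptides, Ppy, the pancreatic polypeptide gene, was at 131 ± 108 and 110 ± 80 CPM, and Pyy, the peptide YY gene, at 105 ± 72.7 and 119 ± 76.6 CPM. The receptors Npy1r, Npy2r and Npy4r and the NPY-cleaving peptidase gene Dpp4 also passed the filter, and Npy5r and Npy6r did not. Of 7 tested genes of the group, 0 were called and 0 had an unadjusted p under 0.05 without the block in edgeR. With it 1 did, Ppy, at a log2 fold change of −0.29 ± 0.12 (edgeR adjusted p = 0.881), against 5.63% of all genes.

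**Figure D3:**
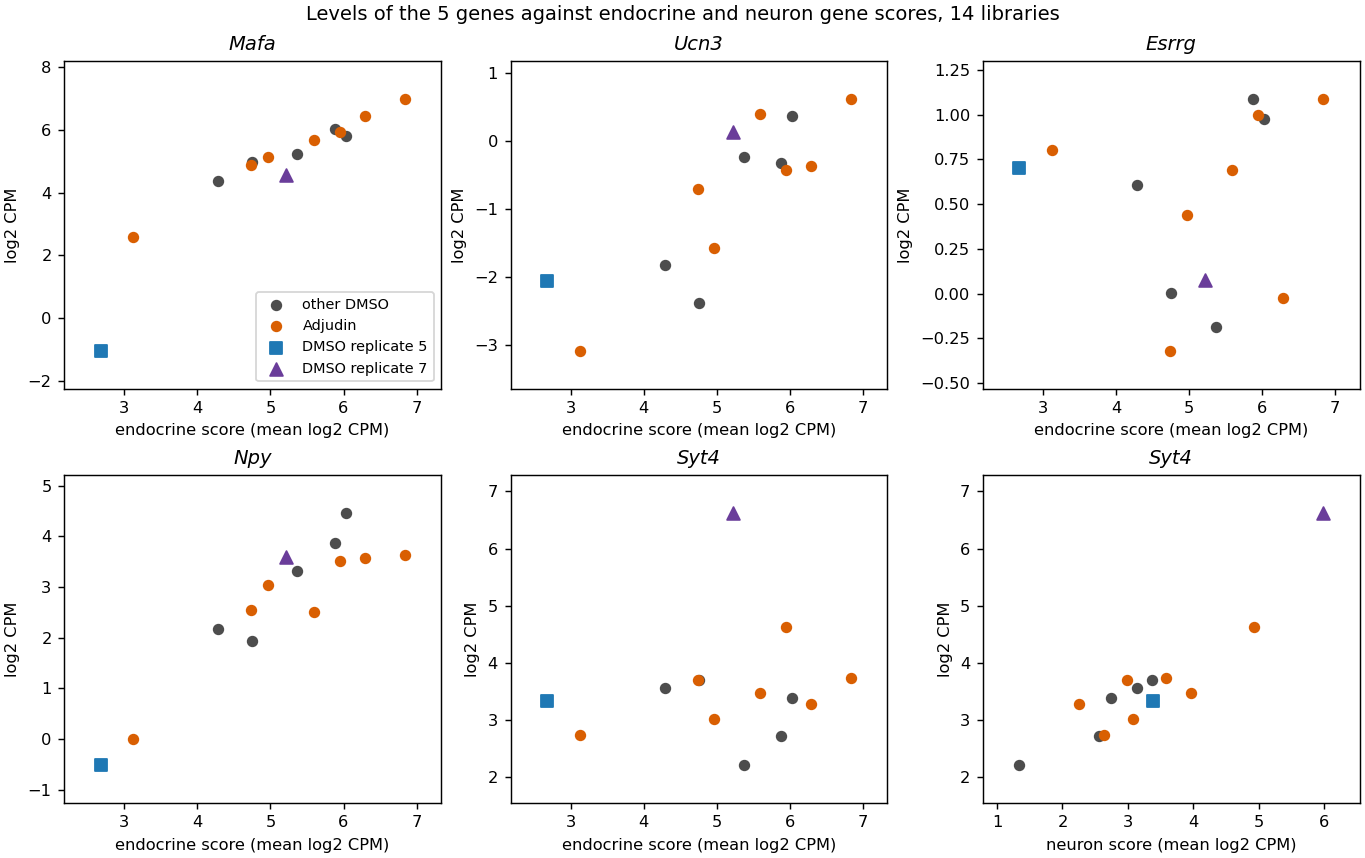
Log2 CPM of each gene against the endocrine score, and of Syt4 also against the neuron score (both mean log2 CPM of a marker list), in 14 libraries; grey points are DMSO, orange points Adjudin, and the square and the triangle are DMSO replicates 5 and 7. Mafa (r = 0.923), Npy (0.918) and Ucn3 (0.831) rise along the endocrine score. Over all 14 libraries Esrrg (0.118) and Syt4 (0.137) do not, but r for Esrrg is 0.511 without pair 5. Syt4 rises along the neuron score (0.919).

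The level of Syt4 was set apart in 1 DMSO library. ENSMUSG00000024261 lies on chromosome 18 at 31437808 to 31447415 on the minus strand. The lowest, median and highest levels were 4.58, 10.4 and 98.5 CPM with DMSO, and with adjudin they were 6.603, 11.0 and 24.7 CPM. DMSO replicate 7 was 3.98-fold above the next library, Adjudin replicate 4, and the other 6 DMSO libraries held 9.39 ± 3.21 CPM (SD). The log2 fold change was −0.85 ± 0.62 (95% confidence interval −2.17 to 0.46, edgeR adjusted p = 0.9999) over all 14 libraries. Without DMSO replicate 7 it turned to 0.40 ± 0.30 (95% confidence interval −0.25 to 1.05, edgeR adjusted p = 0.988). With the block it was −0.07 ± 0.62, and adjudin was higher in 3 of 7 pairs, with differences from −3.62 in pair 7 to 2.42 in pair 4. With the endocrine score as a covariate the log2 fold change of Syt4 was −1.02 ± 0.64. With that covariate and the block it was −1.81 ± 0.72 (95% confidence interval −3.49 to −0.13, edgeR unadjusted p = 0.0378, adjusted p = 0.99999).

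Neuron genes moved with Syt4. The neuron score, the mean log2 CPM of 6 genes such as Th, Dbh, Prph and Stmn2, was 5.98 in DMSO replicate 7 against 1.34 to 3.39 in the other DMSO libraries, and 4.92 in Adjudin replicate 4 against 2.26 to 3.97 in the other Adjudin libraries. All 6 genes of that list passed the filter. In DMSO replicate 7, Prph, a neuronal intermediate filament gene, was at 224 CPM and Stmn2, a neuronal growth gene, at 189 CPM, against at most 100.8 and 99.9 CPM in the other libraries. Not every gene of the list stood out in that library. Elavl4 was at 35.8 CPM in DMSO replicate 7 and at 36.1 CPM in Adjudin replicate 4. Over 14 libraries r between Syt4 and the neuron score was 0.919 and rho 0.829, and r was 0.773 without the 2 libraries farthest in the score. With the neuron score as a covariate, a fit added after the data were seen, the log2 fold change of Syt4 was −0.23 ± 0.21 (edgeR adjusted p = 0.9999). Npy, also a gene of sympathetic neurons, was 12.1 CPM in DMSO replicate 7, inside the range of the other libraries. Relative to the endocrine score, Npy was at −1.62 on the log2 scale in that library, below only DMSO replicate 2 at −1.57. What part neurons have in the Syt4 level was not tested further, and the lincRNA Gm26658 that overlaps Syt4 on the other strand had at most 4 counts per library.

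Of the 17 synaptotagmins listed, the calcium sensors and related proteins of vesicle fusion, 16 passed the filter, all but Syt10. None was called by edgeR, and 0 had an unadjusted p under 0.05 without the block, against 2.26% of all genes. With the block 2 did, Syt13 and Syt8, against 5.63% of all genes. The median log2 fold change over the 16 was 0.12 against −0.01 over all genes. Syt13, which is abundant in endocrine cells, was at 54.5 ± 33.8 CPM with DMSO and 84.4 ± 65 CPM with adjudin. It was higher in 7 of 7 pairs, against 0.95% of all genes. Its blocked log2 fold change was 0.56 ± 0.12 (edgeR adjusted p = 0.525, DESeq2 adjusted p = 0.00345). DESeq2 with the block called 1 of the 16, against 0.572% of all genes. Syt11 was at 57.3 ± 12.8 and 51.9 ± 23.1 CPM. The others tested were Syt1 to Syt7, Syt9, Syt12 and Syt14 to Syt17.

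Per kilobase of gene length, the order of the 5 genes by median over 14 libraries was Npy at 16.0, Mafa at 13.3, Syt4 at 2.748, Ucn3 at 0.478 and Esrrg at 0.244 CPM per kb. Npy and Mafa were neighbours without a fixed order, each higher in 7 of 14 libraries. Mafa was above Syt4 in 12 of 14 libraries, Syt4 above Ucn3 in 14 of 14 and Ucn3 above Esrrg in 9 of 14. The highest per-kilobase level of any member was Mafa in Adjudin replicate 3, at 46.3 CPM per kb.

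The genes whose log2 CPM was most like that of each member were sought after subtraction of the treatment means and over 14 libraries. They were picked from at least 15838 candidate genes per member, so a high r is in part a product of the choice. None of these r values was tested. For Mafa they were Slc5a10, a sugar transporter gene (r = 0.994), G6pc2, the islet glucose-6-phosphatase gene (r = 0.988), and Slc30a8, the zinc transporter gene of insulin granules (r = 0.988). For Npy they were Kcnmb2, a potassium channel subunit gene (r = 0.980), Scgn, the gene of the calcium-binding protein secretagogin (r = 0.977), and Scg2, a granin gene that is also in the endocrine list (r = 0.976). For Ucn3 they were Tmed3, Usp51 and Lrrc10b (r = 0.936, 0.880 and 0.877), and for Esrrg Gm9776, Apcdd1 and Arhgap8 (r = 0.864, 0.845 and 0.843). For Syt4 they were Rit2, a neuronal small GTPase gene (r = 0.972), Elavl2, a neuronal RNA-binding protein gene (r = 0.944), and Inpp5f (r = 0.935). Without pair 5, r was 0.953 for Slc5a10, 0.925 for Kcnmb2, 0.912 for Tmed3, 0.868 for Gm9776 and 0.974 for Rit2. Without DMSO replicate 7, the library with the highest Syt4, r to Syt4 was 0.916 for Rit2, 0.825 for Elavl2 and 0.788 for Inpp5f.

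**Figure D4:**
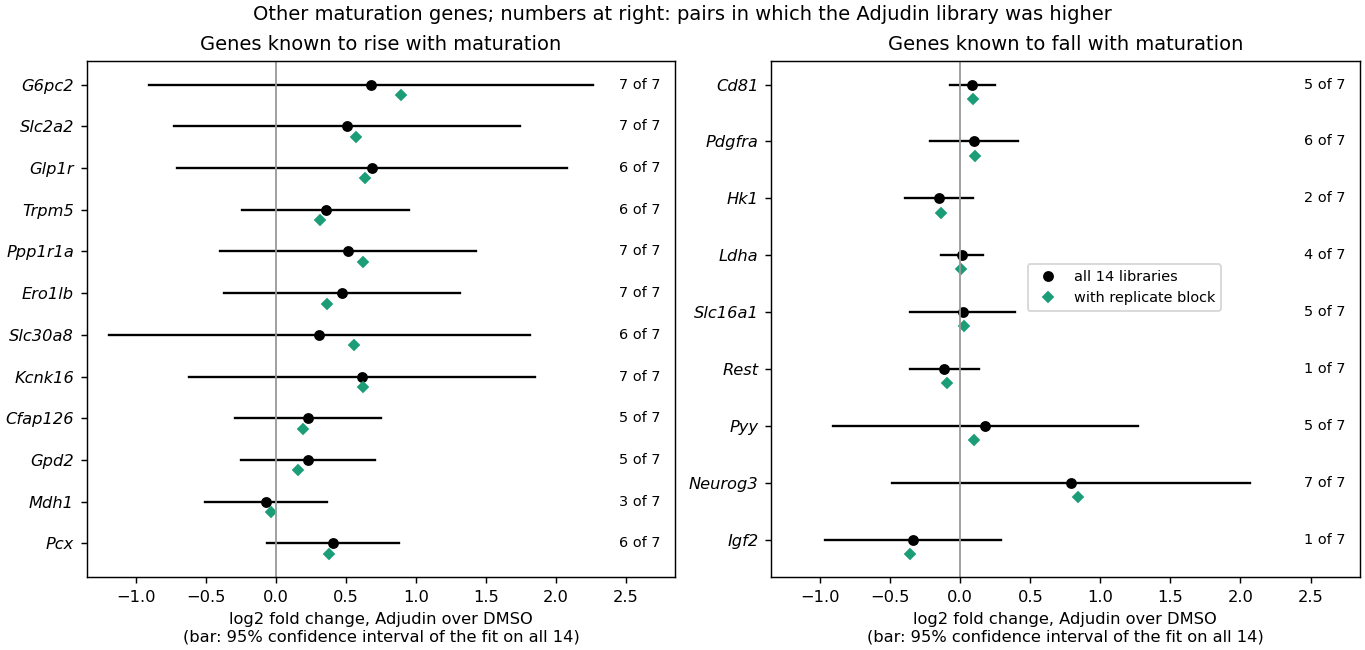
Log2 fold change of 12 further genes known to rise and 9 known to fall with beta cell maturation, Adjudin over DMSO; black points and bars are the edgeR estimates and 95% confidence intervals over all 14 libraries, green diamonds the estimates with the replicate block, and the numbers at the right count the pairs with a higher Adjudin library. The black bars cross 0 in all 21 genes, 11 of 12 points on the left lie above 0, and G6pc2, Slc2a2, Ppp1r1a, Ero1lb, Kcnk16 and Neurog3 were higher in 7 of 7 pairs. Neurog3 held only 0 to 26 counts per library.

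Of 12 further genes known to rise with maturation, 11 had a log2 fold change above 0, with a median of 0.44, whereas over all genes 45.3% were above 0 and the median was −0.01. This list and that of the genes known to fall were chosen with earlier results of these data known. Their counts beside the shares of all genes are therefore descriptions and no test of the lists. EdgeR called 0 of 12 and gave 0 an unadjusted p under 0.05. With the block it called 0 and gave 7 an unadjusted p under 0.05, all higher with adjudin, against 3.25% of all genes, and DESeq2 with the block called 2, against 0.572%. Against 0.95% of all genes, 5 of the 12 were higher in 7 of 7 pairs. These were G6pc2 (46.0 ± 32.3 CPM with DMSO and 73.7 ± 54.3 CPM with adjudin), the glucose transporter gene Slc2a2 (30.7 ± 21.0 and 43.7 ± 33.0 CPM), the phosphatase regulator gene Ppp1r1a (13.2 ± 7.98 and 18.9 ± 9.53 CPM), the oxidoreductase gene Ero1lb (52.1 ± 22.5 and 72.2 ± 45.5 CPM) and the potassium channel gene Kcnk16 (35.9 ± 22.3 and 55.1 ± 36.5 CPM). The 2 that DESeq2 called with the block were Ppp1r1a and Kcnk16 (DESeq2 adjusted p = 0.00497 and 0.000359). The most abundant genes of the list per kilobase were Mdh1, the cytosolic malate dehydrogenase gene (355 ± 123 and 338 ± 78.4 CPM, 3 of 7 pairs higher), G6pc2 and Slc30a8 (45.0 ± 28.5 and 55.9 ± 36.9 CPM). Of the genes in the beta cell score, Slc2a2, Iapp, Nkx6-1 and Pdx1 were higher in 7 of 7 pairs, Ins1 in 4 and Ins2 in 2. The endocrine and acinar scores were each higher with adjudin in 6 of 7 pairs. The part of the beta cell, endocrine and acinar scores in the counts was not tested.

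Of 9 genes known to fall, 6 had a log2 fold change above 0, with a median of 0.02. EdgeR called 0 of 9 and gave 0 an unadjusted p under 0.05. With the block, 1 higher and 1 lower had an unadjusted p under 0.05, against 3.25% higher and 2.38% lower of all genes, and DESeq2 with the block called 0. Neurog3, the transcription factor gene of endocrine progenitors (0.309 ± 0.219 and 0.532 ± 0.286 CPM), was higher in 7 of 7 pairs, against 0.95% of all genes. It held only 0 to 26 counts per library, and in pair 5 it was at 0 CPM with DMSO and 0.0307 CPM with adjudin. Igf2, a fetal growth factor gene, had the lower value, at a blocked log2 fold change of −0.36 ± 0.10. The most abundant per kilobase were Pyy, Ldha, the lactate dehydrogenase A gene (418 ± 21.5 and 421 ± 36.4 CPM), and Cd81, a tetraspanin gene (290 ± 28.3 and 308 ± 24.1 CPM). In DMSO replicate 5, where Ins2 and Gcg were nearly missing, Ldha was at 418, Cd81 at 277 and Pdgfra at 204 CPM. These levels were inside the ranges of the other DMSO libraries, whereas Pyy, at 37.6 CPM, and Neurog3, at 0 CPM, were lowest there. Bulk levels do not show how much of these transcripts comes from beta cells, and this was not tested.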

How the data were processed

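RNA sequencing was done on islets of P0 mice. The deposited values are raw counts of reads per gene. Reads had been aligned by the authors with HISAT2 2.0.5 to the GRCm38/mm10 genome and counted with featureCounts 1.5.0-p3, tools and versions named in the submitters' processing notes. Annotation release, strand setting and handling of multimapped reads: not given in the sources used here.

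Genes were kept by filterByExpr of edgeR with a minimum count of 10, which left 18732. Counts were scaled by TMM and tested with the robust quasi-likelihood F test of edgeR 4.0.16 in R 4.3.3, Adjudin over DMSO, with no further term. P-values were adjusted by the Benjamini-Hochberg method over all genes tested. Each SE is the fold change divided by the root of F. Log2 CPM for scores and correlations used a prior count of 2. Alternatives were the replicate block, DESeq2 1.42.0, limma 3.58.1 (voom), other scalings and filters, score covariates, and leaving out libraries or pairs. Scripts were tested on simulated data.

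The numbers pair the libraries because the labels give each number 1 batch. After subtraction of group means, r across genes between the libraries of a pair was −0.14 to 0.45 (mean 0.25), and its mean between unpaired libraries was −0.10. No libraries agreed within sampling noise: chi-square per degree of freedom was at least 22.7 in 91 comparisons. P-values measure the spread between these pooled samples.

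The members, the gene lists and the tests were chosen with earlier results of these data known. Besides the 5 members, the text names genes of the listed families that passed the filter, gives values for those with 1 direction in 7 of 7 pairs or among the 3 most abundant of a list per kilobase, and names the 3 genes most like each member in Pearson's r among those whose mean log2 CPM was 0 or more. Dbh, Elavl4, Prph, Stmn2, Ins2 and Gcg come from the cell type lists. Some listed genes are not reported here.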

Additional observations from a re-analysis of the deposited data

Results flagged for a closer look

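In a group of 7 libraries, a library was singled out where its gap to the nearest other library took up more than Dixon's 95% limit of the group's whole range. Chance gives about 1 in 20 groups such a library, and 36 groups of values were looked at, with 7 singled out.

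Syt4 was singled out at 98.5 CPM in DMSO replicate 7, with a gap of 0.91 of the DMSO range, and at 24.7 CPM in Adjudin replicate 4, with a gap of 0.631 of the Adjudin range. The same 2 libraries had the highest neuron scores of their treatments, 5.98 and 4.92. DMSO replicate 7 was also singled out by its total of 108865228 counts and by the lowest endothelial score, 4.93 on the log2 CPM scale. With that library thinned to the size of the others the log2 fold change of Syt4 was −0.85.

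DMSO replicate 5 was singled out by a beta cell score of 1.83 and an alpha cell score of −0.77. Mafa was at 0.431 CPM there and Npy at 0.647 CPM, while Esrrg at 1.57 CPM and Syt4 at 10.0 CPM were inside the ranges of the other DMSO libraries. The remaining value was the ductal score of 3.77 in Adjudin replicate 6.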

How the results depend on the processing

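All 40 alternatives kept the direction of Mafa, with log2 fold changes of 0.21 to 1.08 and edgeR, DESeq2 or limma adjusted p of 0.0626 to 1.00, and no member was called in any alternative. The replicate block changed no member's call. For Syt4 the sign turned to 0.37 with DESeq2 without the block, which replaces outlying counts, to 0.40 without DMSO replicate 7, 0.48 without pair 7, 0.41 without pair 7 with the block, 0.042 without pair 5 with the block, 0.41 without DMSO replicates 5 and 7, and 0.61 without both pairs with the block. For Ucn3 it turned to −0.038 with limma-voom without the block, −0.29 with the endocrine covariate, −1.31 with that covariate and the block, and −0.036 with the acinar covariate, and Ucn3 could not be tested at a mean CPM of at least 1. For Esrrg it turned to −0.086 with the endocrine covariate and the block, −0.042 with the acinar covariate, and −0.0063 without pairs 5 and 7 with the block, and for Npy to 0.075 without pair 7 with the block. The cause was not tested. Leaving out 1 library gave 0.42 to 1.00 for Mafa, −0.09 to 0.42 for Ucn3, −0.03 to 0.20 for Esrrg, −0.49 to 0.071 for Npy and −1.12 to 0.40 for Syt4. Leaving out 1 pair gave 0.67 to 0.79, −0.18 to 0.53, −0.10 to 0.24, −0.35 to −0.05 and −1.28 to 0.48 in the same order. Over all genes the count called was 1 in the main test, 0 with the replicate block, 0 with limma-voom with or without the block, 0 with the endocrine or acinar covariate, 3 with DESeq2 and 105 with DESeq2 and the block. It was 0 to 1 without 1 library or pair, 0 without DMSO replicates 5 and 7, and 0 without pair 5, pair 7 or both with the block. Fits with neuron covariates, and those without DMSO replicates 5 and 7 together, without pair 7 with the block or without both pairs with the block, were added after the data were seen. Ucn3 had 2 to 108 counts a library, with a spread between libraries of 10.3 and 11.1 times counting noise in DMSO and Adjudin (chi-square per degree of freedom at equal CPM).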
